A study of Mus musculus with 4 samples.

Results

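The circadian clock genes described here are Clock, Npas2, Per1, Per2, Per3, Cry1, Cry2, Nr1d1, Dbp and Tef, chosen by name as parts of the molecular clock. Their members on the array were all probe sets whose only symbol in the platform annotation is 1 of these 10 genes. This gave 19 probe sets of 9 genes, among 17097 genes with a probe set of their own, and Nr1d1 is not reported because no probe set carries its symbol alone. Expression was measured in bulk RNA of 4T1CH9 tumors, a cherry-tagged triple negative breast cancer (TNBC) line of Balb/c origin. From 50000 cells injected into the mammary fat pad of female Balb/c wild-type mice (6 to 8 weeks old), tumors were established for 10 days. Mice then received vehicle (PEG 400/solutol) or the MEK inhibitor (MEKi) trametinib by gavage, at 1 mg/kg a day for 7 days. For each group there are 2 arrays of the Affymetrix type MG-430PM, named here as labelled (MEKi 1, MEKi 2, vehicle 1 and vehicle 2). The time of day at which tumors were collected, and whether 1 mouse or more gave the RNA of a group, are not given in the sources used here. So p-values rest on a spread among arrays that may be technical, and their precision is limited by the number of arrays.

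The circadian clock is a feedback loop of transcription that runs in nearly every mammalian cell. CLOCK, or its relative NPAS2, pairs with BMAL1 (encoded by Arntl) and switches on genes that carry an E-box, among them Per and Cry, whose proteins return to the nucleus and inhibit the pair. Nuclear receptors of the REV-ERB and ROR families form a further loop that sets Arntl, and the PAR bZIP factors DBP and TEF carry the rhythm to output genes through a site named the D-box. In most mouse tissues the transcripts of Dbp, Tef and Per3 peak at an opposite time of day to those of Arntl and Npas2, so the levels of these genes differ with the hour of collection. The clock genes therefore bear on whether the tumors were alike in this respect.

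Promoter stretches, searched for sites of clock factors, are shown for Per1, Per3 and Cry1. The values of Per1 lay close together in the 4 arrays, and those of Per3 and Cry1 did not. The stretches are from RefSeq (GRCm38.p6), 5′ to 3′ on the strand of the gene, and end before the start of transcription. The Per1 stretch is chr11:69098699-69098948 (+), before 1 of the 2 starts listed for it. The Per3 stretch is chr4:151044708-151044915 (−), and the Cry1 stretch is chr10:85185055-85185304 (−). Capitals mark the motifs found by search on both strands, which were the E-box CACGTG, its variant CACGTT, the D-box (TTATGTAA or TTACGTAA) and AGGTCA, the core of the site of REV-ERB and ROR receptors.
Per1: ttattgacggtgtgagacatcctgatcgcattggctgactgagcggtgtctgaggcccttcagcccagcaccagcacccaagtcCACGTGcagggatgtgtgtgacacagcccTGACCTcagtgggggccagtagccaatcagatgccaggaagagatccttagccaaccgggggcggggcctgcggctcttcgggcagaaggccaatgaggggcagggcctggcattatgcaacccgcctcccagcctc
Per3: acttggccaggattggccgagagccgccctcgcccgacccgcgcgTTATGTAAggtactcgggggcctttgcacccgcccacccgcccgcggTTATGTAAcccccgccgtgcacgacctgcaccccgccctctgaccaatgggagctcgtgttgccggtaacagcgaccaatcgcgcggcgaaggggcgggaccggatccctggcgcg
Cry1: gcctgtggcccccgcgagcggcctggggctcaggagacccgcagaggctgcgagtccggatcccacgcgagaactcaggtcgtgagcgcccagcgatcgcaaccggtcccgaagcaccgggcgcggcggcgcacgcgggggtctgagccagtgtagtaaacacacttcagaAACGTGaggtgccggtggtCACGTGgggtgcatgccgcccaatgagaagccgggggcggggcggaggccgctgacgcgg
Per3 held 2 copies of TTATGTAA, which begin 205 and 158 bases before the end of the 250-base window searched. The Per3 stretch shown is the first 208 bases of that window, because an outer start of the gene lies inside it. Cry1 held an E-box 60 bases before the start and a copy of the variant E-box 79 bases before it, and Per1 an E-box at 166 bases and the receptor core at 137 bases. In windows of the 250 bases before a start, 0.931% of 32851 RefSeq promoters held a D-box, 6.02% an E-box, 3.85% the variant and 14.0% the receptor core. Over the 13 windows of the 9 clock genes with a promoter in the table, Nr1d1 included, 4 held an E-box (Per1, Cry1 and both starts of Tef), 3 the variant, 2 the receptor core and 1 the D-box. The windows of Dbp and of the other Per1 start were among those without a motif, which says only that these letters are not there. Per2 had no promoter among those searched.

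The 4 arrays did not group by label. Pearson's r over the 45037 tested probe sets (features of an array, and so no independent replicates) was 0.992 for MEKi 1 with vehicle 2 and 0.978 for MEKi 2 with vehicle 1, against 0.927 between the MEKi arrays and 0.959 between the vehicle arrays. Values are log2 expression after robust multi-array averaging (RMA), where 1 unit is a doubling, and the medians of the arrays lay between 4.98 and 5.14. Epithelial keratin genes of the labelled carcinoma were present, with Krt8 between 10.54 and 12.92 and Krt18 between 10.43 and 12.78, whereas Krt19 read 4.52 in MEKi 2 and at least 8.91 in the other arrays. Whether labels were exchanged between arrays cannot be told from these values. No label was changed, so each value is given by array, and every fold change and count of calls by label holds only if the labels are right.

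Clock read higher in vehicle 1 than in the other arrays, and its relative Npas2 was dim in every array. Clock, which encodes the activator that pairs with BMAL1, read 7.96 and 8.19 in MEKi 1 and 2, and 8.67 and 7.94 in vehicle 1 and 2. Vehicle 1 was thus the highest array, and the groups overlapped. In the other 3 probe sets of Clock vehicle 1 was the highest array as well, at 7.58, 7.37 and 6.44. Npas2, which encodes the relative of CLOCK, read 4.23 and 4.19 in MEKi 1 and 2, and 3.89 and 4.19 in vehicle 1 and 2. Both of its probe sets lay below the median of every array, so Npas2 was not distinguishable from the dim end of the array and its order carries little weight.

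The 3 Period genes, whose proteins inhibit CLOCK and BMAL1, differed in how far apart they set the arrays. Per1 read 8.13 and 8.60 in MEKi 1 and 2, and 8.32 and 8.40 in vehicle 1 and 2. Both vehicle readings lay between the MEKi readings. Per2 read 6.44 and 6.90 in MEKi 1 and 2, and 7.72 and 6.77 in vehicle 1 and 2, so that vehicle 1 stood above the other 3 arrays, which were within 0.47 of one another. Its second probe set lay below the median of every array, between 4.37 and 4.72. There both MEKi readings lay above both vehicle readings, so vehicle 1 was not the highest array. Per3, the gene with the 2 D-boxes shown above, read 6.88 and 6.89 in MEKi 1 and 2, and 7.88 and 6.71 in vehicle 1 and 2. The 3 lower arrays were within 0.19 of one another and vehicle 1 again stood above them. Vehicle 1 was the highest array in 4 of the 5 Per3 probe sets, with 6.60 against 5.10 to 5.67 in another of them. The exception and 1 of these 4 lay below the median of every array.

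The Cryptochrome genes encode the partners of the Period proteins and did not follow Per2 and Per3. Cry1, the gene with an E-box and its variant in the stretch shown above, read 8.11 and 7.51 in MEKi 1 and 2, and 7.05 and 7.99 in vehicle 1 and 2. Vehicle 1, the highest array for Per2 and Per3, was the lowest for Cry1. Cry2 read 6.56 and 7.01 in MEKi 1 and 2, and 6.71 and 6.59 in vehicle 1 and 2, a range of 0.45 with overlapping groups.

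Dbp set the arrays furthest apart of all the clock genes, because of a low reading in MEKi 2. Dbp, which encodes a D-box activator whose own rhythm is among the strongest in mouse tissues, read 7.38 and 5.55 in MEKi 1 and 2, and 7.13 and 7.80 in vehicle 1 and 2. The range was 2.25, and the other 3 arrays were within 0.67 of one another. Tef, which encodes a second D-box activator, read 9.27 and 8.95 in MEKi 1 and 2, and 9.47 and 9.40 in vehicle 1 and 2. For Tef both MEKi readings lay below both vehicle readings, by a gap smaller than that between the MEKi arrays (0.32). A second Tef probe set, at 4.62 to 5.28, had overlapping groups. The lowest array was therefore MEKi 2 for the brightest probe set of both PAR bZIP members.

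**Figure D1:**
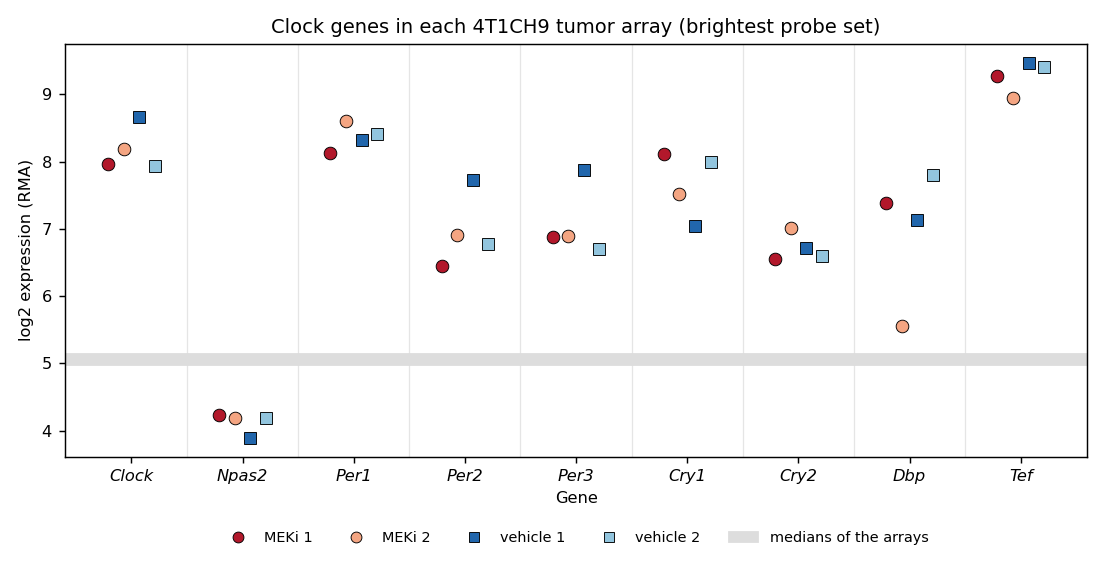
Log2 expression (RMA, vertical axis) of 9 clock genes in each array, by the brightest probe set of each gene, as a circle (MEKi by label) or a square (vehicle by label). The grey band spans the medians of the 4 arrays (4.98 to 5.14). Vehicle 1 lies highest for Per2 (7.72) and Per3 (7.88) and lowest for Cry1 (7.05), and MEKi 2 lies lowest for Dbp (5.55).

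Vehicle 1 was the highest array for 4 of the 9 genes (Clock, Per2, Per3 and Tef), where it was highest for 20.1% of all genes. Over probe sets this was 11 of 19, where the share over all probe sets was 21.6%, but probe sets of 1 gene read the same transcripts and are not independent. MEKi 1 and MEKi 2 were each the highest array for 2 genes and vehicle 2 for 1, where the shares of all genes were 24.9%, 34.8% and 20.2%. The range over the 4 arrays was above 1 log2 unit for 4 of 9 clock genes (Per2, Per3, Cry1 and Dbp), against 25.4% of all genes. The median range was 0.73 for the clock genes and 0.55 for all genes.

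**Figure D2:**
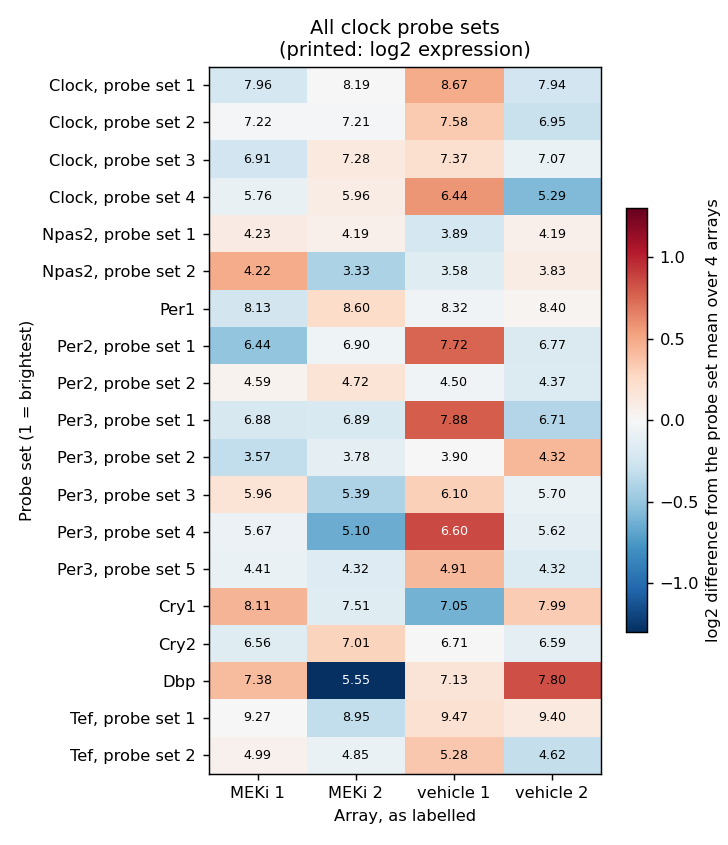
Every clock probe set (rows, with the brightest of a gene numbered 1) in each array (columns). The printed number is log2 expression (RMA), and the color is its difference from the mean of that probe set over the 4 arrays. Vehicle 1 is the highest array in all 4 Clock probe sets and in 4 of 5 Per3 probe sets.

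Compared by label, none of the clock genes passed the test between MEKi and vehicle. With limma, 0 of 19 clock probe sets were called (adjusted p under 0.1, p under 0.05 and over 1.5-fold apart), where 0 of 45037 probe sets were called over the array (0%). At an unadjusted p under 0.05 there were 0 clock probe sets, against 406 of all probe sets (0.901%), and the adjusted p was 1 for every probe set. Dbp averaged 6.47 ± 1.29 (SD, n = 2) in MEKi and 7.47 ± 0.47 (SD, n = 2) in vehicle, a log2 fold change of −0.999 (SE 0.73). Without MEKi 2 this fold change was −0.08. The log2 fold change was −0.57 (SE 0.42) for Per2, −0.41 (SE 0.46) for Per3 and −0.23 (SE 0.32) for Clock. Without vehicle 1 it was −0.10, 0.18 and 0.14. It was 0.29 (SE 0.44) for Cry1, which turned to −0.18 without vehicle 1. The log2 fold change was −0.33 (SE 0.20) for Tef, 0.17 (SE 0.19) for Npas2, 0.13 (SE 0.23) for Cry2 and 0.00 (SE 0.24) for Per1.

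Of the 9 genes, 4 had a higher mean in MEKi and 5 a lower one, and the median log2 fold change was −0.23, against 0.01 over all genes. For 8 of 9 genes the arrays of at least 1 label lay further apart than the means of the labels, and Tef was the exception. Both MEKi arrays lay below both vehicle arrays for 1 of 9 genes (Tef), where this held for 10.2% of all genes, and above them for 0 of 9, where it held for 11.0%.

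The distance between arrays in clock genes depended on the pair. Between MEKi 1 and vehicle 2 the median absolute difference of the 9 genes was 0.14, against 0.15 over all genes, and no clock gene differed by more than 0.42 (Dbp). In this pair 0 of 9 clock genes were over 1 log2 unit apart, as were 1.12% of all genes. Between MEKi 2 and vehicle 1 the median was 0.48 for the clock genes and 0.24 for all genes. In that pair 1 of 9 clock genes was over 1 log2 unit apart, against 6.60% of all genes, with Dbp lower by 1.58 in MEKi 2, and Per3 and Per2 lay lower by 0.99 and 0.82. So the pair with the second highest correlation over the array was also a pair in which clock genes lay further apart than genes in general.

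The arrays labelled vehicle were the pair with the largest median distance in clock genes, 0.67 against 0.28 over all genes. Per3, Per2 and Clock were higher in vehicle 1 than in vehicle 2 by 1.17, 0.95 and 0.73, and Cry1 and Dbp were lower by 0.95 and 0.67. In this pair 1 of 9 clock genes was over 1 log2 unit apart, against 11.7% of all genes. Between the MEKi arrays the median was 0.45 against 0.36, with 1 of 9 clock genes (Dbp, by 1.83) and 19.9% of all genes over 1 log2 unit apart. Between MEKi 1 and vehicle 1 it was 0.34 against 0.31, with 2 of 9 (Per2 and Cry1) against 15.4%, and between MEKi 2 and vehicle 2 it was 0.25 against 0.34, with 1 of 9 (Dbp) against 17.4%. These pairs share arrays and carry no test.

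**Figure D3:**
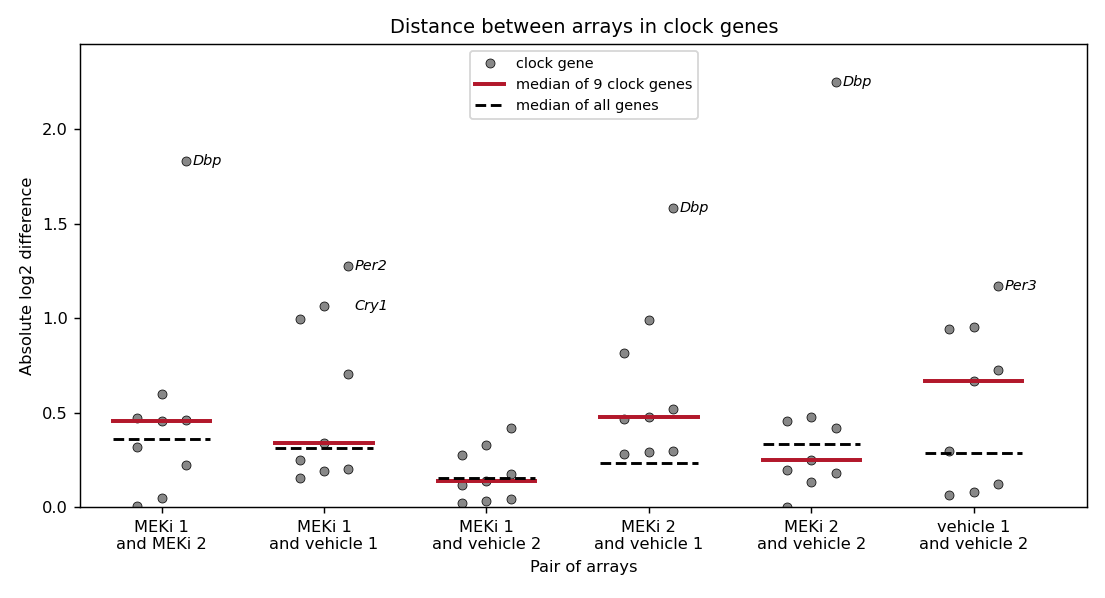
Absolute log2 difference (vertical axis) between the 2 arrays of each pair for 9 clock genes (points), with their median (solid line) and the median of all 17097 genes (dashed line). Genes over 1 log2 unit apart are named. The clock median is 0.67 between the vehicle arrays and 0.14 between MEKi 1 and vehicle 2.

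Arntl, the gene of the partner of CLOCK, was lowest in vehicle 1 and higher in MEKi 1 and vehicle 2, as was Cry1. Dbp also read higher in MEKi 1 and vehicle 2 (7.38 and 7.80) than in vehicle 1 (7.13), but was lowest in MEKi 2 (5.55). Of 17 other clock genes, 15 were measured, 0 were called by limma in either direction, and 3 lay below the median of every array. Arntl read 7.31 and 6.66 in MEKi 1 and 2, and 6.26 and 7.43 in vehicle 1 and 2. The label groups overlapped, and its second probe set lay below the median of every array. Arntl2, which encodes a relative of BMAL1, read 5.81 and 6.15 in MEKi 1 and 2, and 7.10 and 6.26 in vehicle 1 and 2. Vehicle 1 was the highest array, and both MEKi readings lay below both vehicle readings. The same held in its second probe set, which lay below the median of every array. Between the label means, Arntl differed by 0.14 (SE 0.51) and Arntl2 by −0.70 (SE 0.37), both with a limma adjusted p of 1.

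The array labelled MEKi 2 was apart from the others in 2 further clock genes. Rora, which encodes a receptor that activates Arntl, read 6.53 and 4.34 in MEKi 1 and 2, and 6.04 and 6.05 in vehicle 1 and 2. MEKi 2 was low also in 2 further Rora probe sets, at 4.30 and 4.55, against at least 5.44 in the other arrays, while the last 2 probe sets lay below the median of every array. Hlf, which encodes the third PAR bZIP factor besides DBP and TEF, read 4.85 and 6.49 in MEKi 1 and 2, and 4.85 and 4.91 in vehicle 1 and 2. Hlf was thus high in the array in which Dbp was low, and its second probe set had the same highest array, at 6.09 against 3.99 to 4.26. In every array but MEKi 2, both Hlf probe sets lay below the array median. Nfil3, which encodes a repressor at D-boxes, read 8.16 and 8.86 in MEKi 1 and 2, and 8.95 and 7.80 in vehicle 1 and 2. Btrc, which encodes an F-box protein that marks Period proteins for degradation, read 5.68, 6.69, 6.51 and 5.27 in the same order, and in 1 of its 4 further probe sets MEKi 2 was not among the higher arrays. For Nfil3 and Btrc, MEKi 2 and vehicle 1 were the higher arrays. The brightest probe sets of the 9 remaining genes ranged over less than 1 log2 unit. A further probe set ranged over more for Csnk1e (7.81 to 9.16) and Fbxw11 (4.69 to 5.88), which encode a kinase and an F-box protein that act on Period proteins, and for Nr1d2 (4.70 to 6.01), which encodes a REV-ERB receptor. In these 3 probe sets MEKi 2 and vehicle 1 were the higher arrays.

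Of 10 listed output genes that follow the clock in several mouse tissues, 7 were measured and 0 were called by limma in either direction. Tspan4, which encodes a tetraspanin, read 10.24 and 11.56 in MEKi 1 and 2, and 11.89 and 10.60 in vehicle 1 and 2. Klf9, which encodes a transcription factor under both the clock and glucocorticoids, read 8.87, 10.59, 10.64 and 9.62 in the same order. In both genes MEKi 2 and vehicle 1 were the higher arrays, the pairing of the arrays over all probe sets. Tsc22d3, a glucocorticoid-induced gene also known as Gilz, ran the other way, at 10.87 and 9.33 in MEKi 1 and 2, and 10.11 and 10.90 in vehicle 1 and 2. Lonrf3, which encodes a RING finger protein, read 4.42, 4.55, 5.79 and 4.86, with vehicle 1 the highest array, as for Per2 and Per3. Unlike in those genes, both MEKi readings of this probe set lay below both vehicle readings. Only the vehicle 1 reading was above the array median. The other Lonrf3 probe set lay below the median of every array, between 4.07 and 4.39. The brightest probe sets of the other 3 genes ranged over less than 1 log2 unit.

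**Figure D4:**
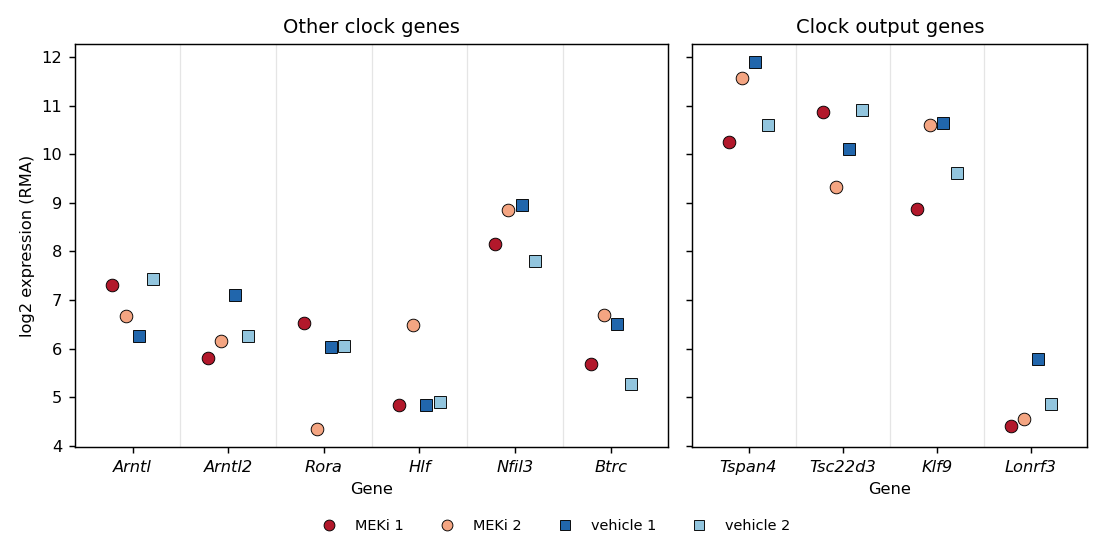
Log2 expression (RMA, vertical axis) of the 6 other clock genes (left) and the 4 clock output genes (right) that ranged over more than 1 log2 unit, with each array as a circle (MEKi by label) or a square (vehicle by label). Arntl is lowest in vehicle 1 (6.26), and in MEKi 2 Rora is lowest (4.34) and Hlf highest (6.49).

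Dbp, as the clock gene with the widest range, was compared with 4341 other genes that ranged over more than 1 log2 unit. After each gene was centred on its own mean, the smallest root-mean-square differences from Dbp over the 4 arrays were 0.04 for Klrg1, 0.07 for Hs3st3b1, 0.07 for Ccdc3, 0.08 for Penk and 0.10 for Erbb3. Klrg1, an inhibitory receptor gene of effector T and NK cells, read 6.69 and 4.90 in MEKi 1 and 2, and 6.51 and 7.08 in vehicle 1 and 2. Erbb3, a receptor tyrosine kinase gene of epithelial cells, read 7.77, 5.74, 7.47 and 7.93 in the same order. With 4 arrays such likeness is a description only.

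Markers of cell types differed between the arrays, and in bulk RNA fewer cells of a type and less RNA per cell cannot be told apart. Epithelial markers were lowest in MEKi 2, the array with low Dbp, for 5 of 8 genes and in MEKi 1 for Krt8, Krt18 and Cldn7. Their summed level (log2 of the sum of unlogged values), which was lowest in MEKi 1, was 12.14 and 13.07 in MEKi 1 and MEKi 2 and 14.07 and 13.15 in vehicle 1 and vehicle 2. Fibroblast markers were lowest in MEKi 2 for 4 of 7 genes and highest there for the other 3 (Pdgfra, Pdgfrb and Dcn). Pdgfrb read 9.82 in MEKi 2 and 7.38 or less in the other arrays. The fibroblast summed levels were 13.64 and 12.90 in the MEKi arrays and 14.03 and 13.81 in the vehicle arrays. Col1a2 lay below the 25th percentile in MEKi 2, but its probe set read no higher than 5.26 in any array. Endothelial markers were lowest in MEKi 2 for 4 of 6 genes (1 of them, Kdr, ranged over 0.14) and in MEKi 1 for 2 of 6. Their summed levels were 10.76 and 10.92 in the MEKi arrays and 11.24 and 10.76 in the vehicle arrays, so by this measure MEKi 2 was not the lowest. Neutrophil markers were highest in MEKi 2 for 4 of 5 measured genes. Their summed levels were 11.34 and 12.70 in the MEKi arrays and 11.45 and 10.29 in the vehicle arrays. Mmp9, the exception, read 7.37 and 8.89 in MEKi 1 and 2, and 11.23 and 9.39 in vehicle 1 and 2. S100a8 read 9.99, 11.10, 6.17 and 7.70 in the same order, and S100a9 10.29, 11.87, 7.09 and 7.92. Both MEKi readings lay above both vehicle readings for S100a8, S100a9 and Cxcr2, but not for Csf3r. Macrophage markers were highest in vehicle 1, the array with high Per2 and Per3, for 8 of 8 genes, with summed levels of 13.00 and 13.86 in the MEKi arrays and 14.59 and 13.65 in the vehicle arrays. Adipocyte markers were highest in vehicle 1 for 5 of 5 measured genes, at 12.35 and 11.14 in the MEKi arrays and 13.16 and 12.98 in the vehicle arrays. No epithelial or macrophage marker lay below the 25th percentile of any array, and of the adipocyte markers Lep did so in MEKi 2.

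B cell markers were highest in MEKi 1 for 6 of 7 genes and in vehicle 2 for 1 of 7. Their summed level was 14.18 and 8.42 in MEKi 1 and MEKi 2 and 9.15 and 13.70 in vehicle 1 and vehicle 2, and Blk lay below the 25th percentile in vehicle 1. T cell markers were highest in MEKi 1 for 5 of 7 genes and in vehicle 2 for 2 of 7, with summed levels of 13.06 and 8.48 in the MEKi arrays and 9.36 and 13.00 in the vehicle arrays, and Lef1 lay below the 25th percentile in vehicle 1. Lymph node stroma markers summed to 13.61 and 8.59 in the MEKi arrays and 9.27 and 13.41 in the vehicle arrays (6 of 7 genes measured). They were highest in MEKi 1 for 4 of 6 genes and in vehicle 2 for 2 of 6. Glycam1, Madcam1 and Chst4 lay below the 25th percentile in MEKi 2 and vehicle 1. Chst4 was also below the array median in vehicle 2 (4.46). Lyve1 did not follow the sum, at 8.49 and 8.21 in MEKi 1 and 2, and 8.84 and 9.55 in vehicle 1 and 2. MEKi 1 and vehicle 2, the arrays with these summed levels high, are those in which Cry1, Arntl and Dbp were higher. The part of these cell types in the clock gene readings was not tested. Muscle, another tissue with a strong clock, had 6 of 7 markers below the median of every array, and 7 ubiquitous reference genes each ranged over 0.34 or less.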

How the data were processed

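The values are log2 expression as the authors deposited it, after RMA with the AFFY package in R, which included quantile normalization of the 4 arrays. Neither a filter nor pooling is stated, and versions of RMA and AFFY are not given in the sources used here. Quantile normalization gives the arrays nearly equal distributions, so a shift shared by most genes cannot be seen. The file holds 45141 probe sets, of which 104 controls were not tested. A single symbol names 28898 of the other 45037, while 551 carry several and 15588 are unnamed here. Where a gene had several probe sets, the brightest by mean level stood for it.

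All probe sets were fitted together in R 4.3.3 by lmFit and eBayes of limma 3.58.1 (two-sided, Benjamini-Hochberg adjustment), with MEKi against vehicle by label and no covariate. The fit was tested on simulated data, with conditions to pass set only at a spread smaller than the measured one. How often it finds a change at the measured spread is not given here. Pairs of arrays were compared by differences with no test. Tables and figures were made with Python 3.11.15, pandas 2.3.3, numpy 2.4.6 and matplotlib 3.10.9. The members and gene lists were chosen with earlier results of these data known. Named genes were all clock members, those of the other lists that ranged over more than 1 log2 unit, and the 5 genes most like the member of widest range. Alternatives were a stricter adjusted p, an intensity trend, no moderation, no dim probe sets (0.25 of them by mean left out), 2 ways of centring, a replicate block, each array left out and averaging the probe sets of each gene. The scanner files and the paper's own fold changes were not used.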

Additional observations from a re-analysis of the deposited data

How the results depend on the processing

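No clock gene and no probe set of the array was called in any of the alternatives, each array left out included, with 0 calls throughout. The lowest limma adjusted p of a clock gene was 0.347, which arose only with centring on tumor epithelial markers. Centring each array on tumor epithelial markers raised all probe sets by 1.47 in MEKi relative to vehicle. The median log2 fold change of the clock genes was then 1.24, and 5 genes turned sign, to 1.24 for Clock, 0.89 for Per2, 1.06 for Per3, 0.47 for Dbp and 1.14 for Tef. Relative to that shift their order was as before. Centring on reference genes shifted all probe sets by 0.01.

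With 1 array left out in turn, the median of the clock genes lay between −0.36 and −0.04. Over the single genes it lay between −0.59 and 0.14 for Clock, −0.23 and 0.24 for Per1, −0.99 and 0.18 for Per3, −0.18 and 0.76 for Cry1, and −0.10 and 0.36 for Cry2, so that the direction of these 5 genes rests on single arrays. It lay between −1.05 and −0.10 for Per2, −1.91 and −0.08 for Dbp, −0.49 and −0.17 for Tef and 0.02 and 0.32 for Npas2. In these fits 1 arm has a single array, assumed to vary like the other arm.

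Same-numbered arrays deviated from their group means in opposite directions (r = −0.764 over 45037 probe sets). Whether same-numbered arrays were handled together cannot be told from these values. The replicate block left the median of the clock genes at −0.23 and called 0 probe sets, and the crossed pairing, added after the data were seen, also called 0. Signal over background limits Npas2 most, since both of its probe sets lay below the median of every array.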

Other observations

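Genes that respond to glucocorticoids, hormones with a daily rhythm of their own, did not order the arrays in 1 way. All 8 listed genes were measured and 0 were called by limma in either direction, as for all other probe sets of the array. Fkbp5, which encodes a co-chaperone of the glucocorticoid receptor, read 9.02 and 11.03 in MEKi 1 and 2, and 10.32 and 9.55 in vehicle 1 and 2. A second Fkbp5 probe set had the same 2 higher arrays, at 9.08 and 8.46 against 6.85 and 6.83. Errfi1, which encodes an inhibitor of ErbB receptors, read 9.35, 11.36, 11.51 and 10.09 in the same order, again higher in MEKi 2 and vehicle 1. Ddit4, which encodes an inhibitor of mTORC1, read 10.70, 10.69, 9.70 and 10.88, with vehicle 1 the lowest array as for Cry1 and Arntl. Of the list, 5 genes ranged over more than 1 log2 unit, and 2 of these 5, Klf9 and Tsc22d3, are also among the output genes described above.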
